A study of Mus musculus with 19 samples.

Results

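Dazl, Ddx4, Cpeb1, Ybx2, Mos, Btg4, Zar1, Patl2 and Lsm14b are 9 genes through which a mouse oocyte stores, silences, translates or removes its messenger RNAs. They were taken by symbol from the 36172 genes of the deposited count table. All 9 symbols were found, each on a single row, and all 9 passed the filter on low counts that left 15518 genes to test. The libraries were made from whole ovaries of female C57BL/6 mice, an inbred strain with no treatment named in the labels, at 4 ages. The ages of 3, 6 and 9 months had 5 libraries each and the age of 12 months had 4, and the sum of estimated counts in a library ran from 10851519 to 14302207. Nothing in the labels ties a library to a single animal, so a p-value here weighs a difference against the spread of these libraries alone, and that spread may be technical. Libraries are called by age and by their order in the labels within that age. A whole ovary holds oocytes among many somatic cells, and fewer oocytes and less of a transcript per oocyte cannot be told apart in such libraries.

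A growing oocyte makes large stores of mRNA, keeps much of it silent with short poly(A) tails, and then stops transcription. Maturation to an egg therefore runs on stored mRNA, which is polyadenylated and translated in a set order and later cleared. DAZL is an RNA-binding protein that promotes translation of germ cell mRNAs, and DDX4, the mouse Vasa protein, is an RNA helicase of germ cells and the common marker of oocytes in tissue sections. CPEB1 binds the cytoplasmic polyadenylation element and can repress or activate an mRNA. YBX2 (also called MSY2) and ZAR1 bind and stabilise stored mRNA, while PATL2 and LSM14B are ribonucleoprotein components of the oocyte that act in translational repression. MOS is the kinase that switches on the MAPK cascade during maturation from a stored mRNA, and BTG4 brings the CCR4-NOT deadenylase to maternal mRNAs so that they are cleared.

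Upstream sequences are shown for 5 of the genes, because 3 of them (Dazl, Btg4, Patl2) dropped to low levels in older ovaries and 2 (Cpeb1, Lsm14b) changed least. RefSeq start sites of build GRCm38.p6 were found for 8 of the 9 genes, not for Mos. Each stretch is written 5′ to 3′ on the strand of its gene, lies upstream of the listed start and outside annotated exons, and is at most 150 bases long. Capitals mark matches to CANNTG, the E-box to which the oocyte factor FIGLA binds, or to TGATTG, the element of the oocyte factor LHX8.
Dazl, chr17:50293637-50293786, minus strand: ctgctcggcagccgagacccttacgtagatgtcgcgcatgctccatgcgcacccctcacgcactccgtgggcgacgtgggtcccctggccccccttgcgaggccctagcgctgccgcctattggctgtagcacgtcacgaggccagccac
Btg4, chr9:51115851-51116000, plus strand: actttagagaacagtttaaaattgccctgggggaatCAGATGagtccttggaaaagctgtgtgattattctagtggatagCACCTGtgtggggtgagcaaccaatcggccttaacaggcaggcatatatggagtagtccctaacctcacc
Patl2, chr2:122186190-122186271, minus strand: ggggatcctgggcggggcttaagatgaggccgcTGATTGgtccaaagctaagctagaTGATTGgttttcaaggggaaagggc
Cpeb1, chr7:81454759-81454908, minus strand: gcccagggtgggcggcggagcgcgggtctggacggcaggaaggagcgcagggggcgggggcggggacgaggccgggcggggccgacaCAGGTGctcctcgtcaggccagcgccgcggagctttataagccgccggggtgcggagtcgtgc
Lsm14b, chr2:180024750-180024899, plus strand: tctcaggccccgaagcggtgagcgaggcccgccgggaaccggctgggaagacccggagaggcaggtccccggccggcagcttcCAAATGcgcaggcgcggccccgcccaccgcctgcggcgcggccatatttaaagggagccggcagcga

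The 5 upstream regions differed most in base composition. Over the 250 bases before the start, Btg4 held 1 CG dinucleotide at a GC content of 38%, Patl2 held 9 at 62.4% and Dazl held 20 at 67.2%. The regions of Cpeb1 and Lsm14b held 25 and 34 CG dinucleotides at 74.0% and 76.0% GC. Among genes not shown, Ybx2 held 35 at 77.2% before the first of its listed starts, Ddx4 held 31 at 70.4% and Zar1 held 9 at 55.6%. All of these were lower at 12 months, so the base composition of the genes that fell spanned that of Cpeb1 and Lsm14b. Whether base composition goes with the changes by age was not tested. The median over all 27025 promoters was 6 CG dinucleotides and 52% GC. An E-box stood in each of these 5 windows, 2 of them in Btg4, but 66.0% of all promoters hold one in 250 bases. TGATTG was found 2 times in Patl2 and in none of the other 4, against 13% of all promoters with a match on either strand. Among genes not shown, the window of Ddx4 held 1 match. Both Patl2 matches run into a further G, so they overlap with CCAAT read on the other strand, a box that 34.5% of all promoters hold. TAATTA and TAATTG, 2 forms of the element of the oocyte factor NOBOX, were in none of the 5, against 4.9% and 7.3% of all promoters. The starts listed for Btg4, Cpeb1 and Lsm14b lie inside the spans of their genes, which RefSeq also begins farther upstream. These matches describe letters in a window and are not shown to be sites of binding.

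Levels of the 9 genes differed widely within the same ovaries. Per kilobase of exon, Lsm14b led with a mean of 36.5 CPM per kb over the 19 libraries (CPM is the count scaled to a common library size with TMM, edgeR's correction for library composition). Cpeb1 followed at 5.41, Btg4 at 3.40, Zar1 at 2.43, Mos at 2.19, Ybx2 at 2.12, Dazl at 1.52, Ddx4 at 0.857 and Patl2 at 0.574 CPM per kb. At 3 months the ranges of Cpeb1 and Btg4 overlapped, with means of 6.27 and 6.25 CPM per kb, and so did those of each neighbouring pair from Btg4 down to Dazl. At 12 months Cpeb1, at 5.12 CPM per kb, stood above Btg4, at 1.60 CPM per kb, in 4 of 4 libraries without overlap. The ranges of each neighbouring pair from Btg4 to Patl2 overlapped at that age. Exon lengths are sums over all annotated isoforms, so a gene of which ovaries use a short isoform is understated.

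**Figure D1:**
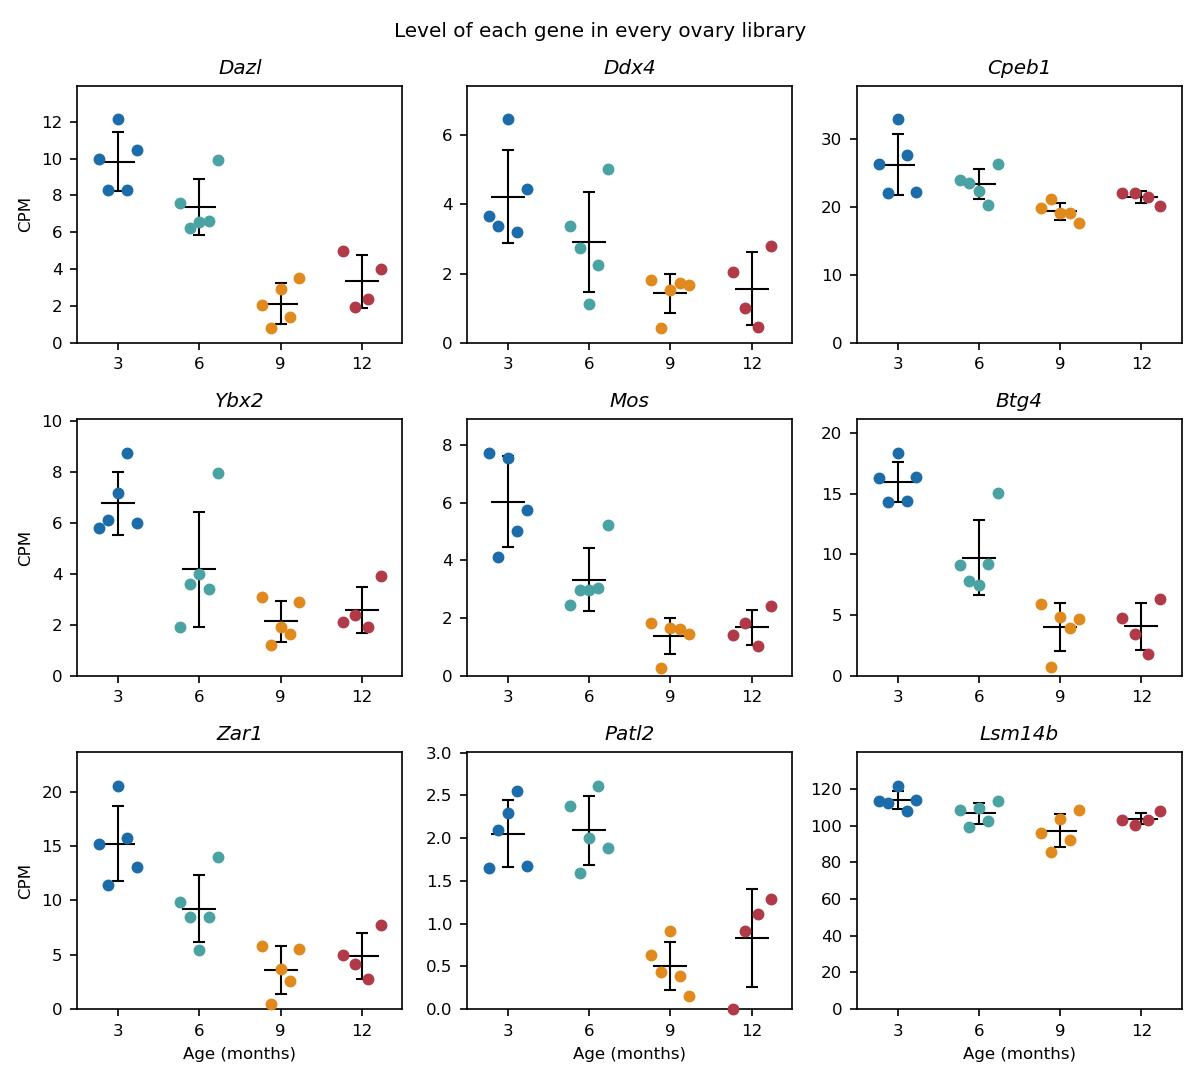
Level of each of the 9 genes in CPM (vertical axis, from 0) in every ovary library by age in months (horizontal axis); points are libraries, and the bars give the mean and SD of each age (n = 5, 5, 5 and 4). Zar1 runs from 15.2 CPM at 3 months to 4.90 CPM at 12 months on average, while Lsm14b stays between 85.5 and 122 CPM in all 19 libraries.

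Between 3 and 12 months, 6 of the 9 genes fell, Btg4 and Mos to 25.6% and 27.9% of their level and Dazl, Ddx4, Ybx2 and Zar1 to 32.2% to 38.3% of it. Cpeb1, Patl2 and Lsm14b did not pass the test. By edgeR's quasi-likelihood test with Benjamini-Hochberg adjustment over all genes, 11.5% of the 15518 genes were lower at 12 months at an adjusted p under 0.05 and 10.9% were higher. The median log2 change was -1.43 over the 9 genes and 0.02 over all genes. In 8 of the 9, Cpeb1 being the exception, every 12-month library lay below every 3-month library, as did 9.75% of all genes. The oviduct list, 9 genes of a tube that adjoins the ovary, summed to 1870 to 3000 CPM at 3 months and 2490 to 5400 CPM at 12 months. With its mean as a covariate, 3 of the 6 calls were left (Dazl, Mos and Btg4). Ddx4, Ybx2 and Zar1 were then at -0.935, -1.16 and -1.25 (log2), and the calls over all genes went from 3475 to 1619 in that fit. In comparisons given below, the same covariate left 9 of 9 calls at 9 against 3 months and 8 of 8 along the trend over age. At 9 against 6 months 7 were called with it and 6 without it. The part of oviduct tissue in these changes was not tested further.

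Dazl and Ddx4 are the general germ cell genes of the group. Dazl (chr17:50279393-50293620, GRCm38) stood at 9.98, 8.29, 12.1, 8.31 and 10.5 CPM at 3 months and at 5.004, 1.91, 2.37 and 4.004 CPM at 12 months. At 6 months it stood at 7.58, 6.21, 6.58, 6.60 and 9.90 CPM, and at 9 months at 2.05, 0.792, 2.89, 1.40 and 3.50 CPM. The 9-month and 12-month libraries all lay below the 3-month and 6-month ones, and library 5 was the only one of 6 months within the 3-month range. Dazl fell by 1.56 ± 0.33 (log2, SE) from 3 to 12 months (edgeR adjusted p = 0.00358), and by 2.21 ± 0.31 from 3 to 9 months (edgeR adjusted p = 0.000145).

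Ddx4 (chr13:112598333-112652633) had the weakest support of the genes that fell by 12 months. It stood at 3.68, 3.36, 6.46, 3.21 and 4.44 CPM at 3 months, and at 2.03, 0.995, 0.445 and 2.79 CPM at 12 months. The 6-month libraries, at 3.38, 2.74, 1.12, 2.25 and 5.02 CPM, overlapped with both ages, and the 9-month ones held 1.81, 0.432, 1.52, 1.72 and 1.67 CPM. Its 12-month libraries were spread widely, with estimated counts between 6.30 and 36.6. The change of -1.43 ± 0.47 (log2, SE; edgeR adjusted p = 0.0348) lost its call in 7 of 31 other settings. Among these were leaving out library 3 or 5 at 3 months (edgeR adjusted p = 0.0893 and 0.0616), library 2 or 3 at 12 months (0.0847 and 0.11), or the 3 libraries that hold lymph node transcripts (0.0558).

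Ybx2 and Zar1 belong to the machinery that stabilises stored mRNA. Ybx2 (chr11:69935805-69941604) stood at 5.78, 6.13, 7.18, 8.75 and 5.97 CPM at 3 months, against 2.11, 2.37, 1.93 and 3.93 CPM at 12 months. At 6 months 4 of its libraries held 1.92 to 4.01 CPM and library 5 held 7.95 CPM, and at 9 months the range was 1.22 to 3.08 CPM. The ages of 3 and 12 months did not overlap, and the 6-month libraries spanned nearly the whole range. Its change by 12 months was -1.38 ± 0.34 (log2, SE; edgeR adjusted p = 0.009).

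Zar1 (chr5:72577113-72581361) stood at 15.2, 11.4, 20.5, 15.7 and 13.1 CPM at 3 months and at 5.004, 4.13, 2.75 and 7.71 CPM at 12 months. Between those ages it stood at 9.87, 8.44, 5.45, 8.49 and 14.02 CPM at 6 months and at 5.84, 0.432, 3.65, 2.57 and 5.55 CPM at 9 months. The lowest 3-month library lay above every 12-month library, and library 2 at 9 months held 6 counts of the gene. Zar1 fell by 1.63 ± 0.44 (log2, SE) from 3 to 12 months (edgeR adjusted p = 0.0141). Without library 3 at 12 months that call was lost (-1.43; edgeR adjusted p = 0.0533).

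Mos and Btg4, which act at maturation and at clearance of the store, had the largest estimated changes by 12 months. Mos (chr4:3870658-3872105) stood at 7.73, 4.11, 7.54, 5.03 and 5.75 CPM at 3 months and at 1.41, 1.84, 1.04 and 2.42 CPM at 12 months. It stood at 2.47, 2.96, 2.97, 3.05 and 5.23 CPM at 6 months and at 1.81, 0.288, 1.67, 1.64 and 1.45 CPM at 9 months. All 6-month libraries but library 5 lay below the 3-month range, and all 9-month libraries lay below the 6-month range. The change of Mos was -1.84 ± 0.37 by 12 months (log2, SE; edgeR adjusted p = 0.00297), a level of 27.9% with a 95% interval of 16.3% to 47.6%.

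Btg4 (chr9:51102147-51119924) stood at 16.3, 14.35, 18.4, 14.4 and 16.4 CPM at 3 months, a narrow range with an SD of 10.4% of the mean. It held 9.14, 7.79, 7.46, 9.21 and 15.1 CPM at 6 months, 5.92, 0.720, 4.87, 3.90 and 4.64 CPM at 9 months, and 4.77, 3.44, 1.78 and 6.35 CPM at 12 months. Only library 5 of the 6-month libraries entered the 3-month range, and the older 2 ages lay below every 6-month library. Btg4 fell by 1.97 ± 0.40 (log2, SE) by 12 months (edgeR adjusted p = 0.00323), to 25.6% with a 95% interval of 14.4% to 45.5%.

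Patl2 (chr2:122120108-122186189) was the rarest of the 9, and whether its course differed from that of the others was not tested. It stood at 1.65, 2.09, 2.30, 2.55 and 1.68 CPM at 3 months and at 2.38, 1.59, 2.005, 2.61 and 1.88 CPM at 6 months. At 9 months it stood at 0.631, 0.432, 0.913, 0.390 and 0.152 CPM, and at 12 months at 0.918, 1.11 and 1.28 CPM in 3 libraries and at 0 counts in library 1, which allows up to 0.235 CPM (3 counts). The first 2 ages overlapped entirely, and all 9 libraries of the older ages lay below them. Between 6 and 9 months Patl2 fell by 2.03 ± 0.49 (log2, SE; edgeR adjusted p = 0.00926). Between 3 and 6 months its change was 0.02 ± 0.44, with a 95% interval from 54.2% to 191% of the 3-month level. Its change by 12 months, -1.29 ± 0.50, did not pass (edgeR adjusted p = 0.0682) but did in DESeq2, limma-voom and limma on the authors' log2 values, and in edgeR without library 4 at 12 months (adjusted p = 0.0493).

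Cpeb1 and Lsm14b changed least. Cpeb1 (chr7:81347026-81458001) stood at 26.3, 22.04, 32.9, 27.8 and 22.3 CPM at 3 months, 24.03, 23.5, 22.4, 20.4 and 26.4 CPM at 6 months, 19.8, 21.2, 19.09, 19.11 and 17.7 CPM at 9 months, and 22.1, 22.1, 21.5 and 20.2 CPM at 12 months. The 9-month libraries all lay below the 3-month range, and 2 of the 4 12-month libraries reached its lower edge. Its change by 12 months was -0.29 ± 0.11 (log2, SE; edgeR adjusted p = 0.0586), a level between 69.8% and 95.6% of that at 3 months (95% interval). It passed in DESeq2, and in edgeR without library 2 or library 5 at 3 months (adjusted p = 0.0313 and 0.0375). By 9 months Cpeb1 fell by 0.44 ± 0.10 (log2, SE; edgeR adjusted p = 0.00457).

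Lsm14b (chr2:180024900-180035466) held 108 to 122 CPM at 3 months, 99.4 to 113 CPM at 6 months, 85.5 to 108 CPM at 9 months and 100.5 to 108 CPM at 12 months. Its 12-month libraries lay just below its 3-month range, the ranges meeting near 108 CPM. The change of -0.14 ± 0.06 by 12 months (log2, SE) did not pass (edgeR adjusted p = 0.127), and its 95% interval ran from 83.1% to 99.7%. By 9 months Lsm14b fell by 0.23 ± 0.06 (log2, SE; edgeR adjusted p = 0.00881). Without the lymph node libraries the change was -0.15 and did not pass (edgeR adjusted p = 0.112). As background, both genes are also transcribed in somatic tissues, unlike the germ cell genes Dazl and Ddx4.

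**Figure D2:**
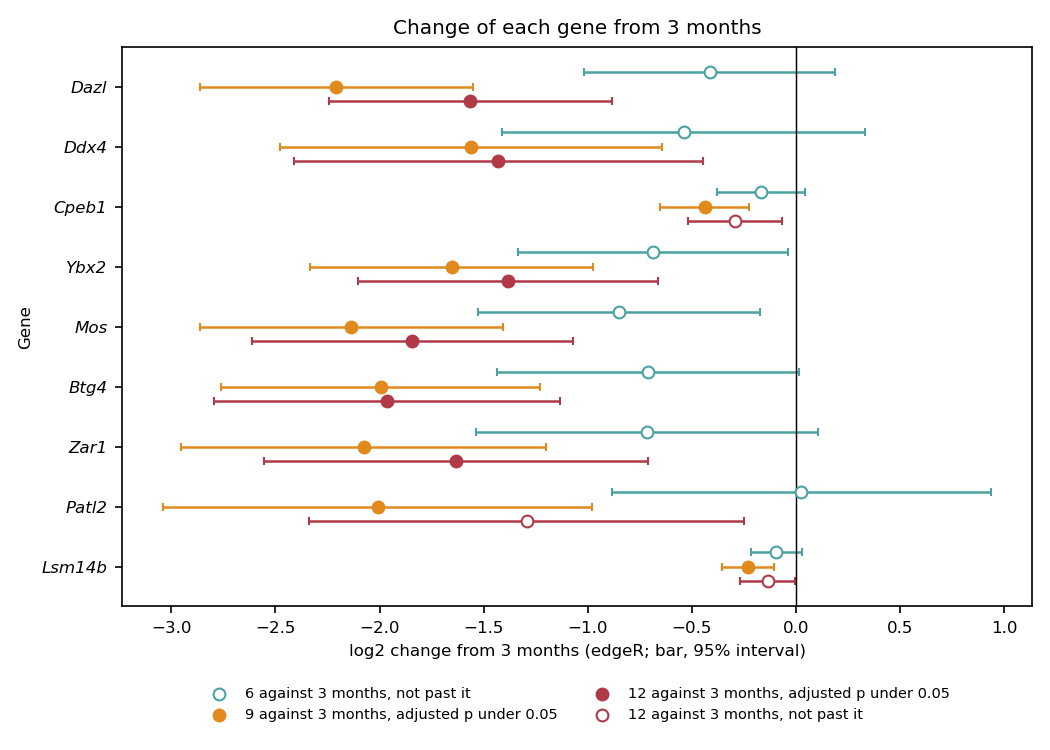
Log2 change of each gene from the 3-month libraries at 6, 9 and 12 months (horizontal axis) by edgeR, with 95% intervals as bars; filled points passed an adjusted p of 0.05 and open points did not. All 9 points at 9 months are filled, 6 are at 12 months, and none is at 6 months, where Patl2 lies at 0.02.

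The other ages were compared in the same way. The comparisons of 6, 9 and 12 months with 3 months share the 3-month libraries, so their values are given side by side and are not independent of each other. At 6 months 0 of the 9 passed edgeR's test, with 0.00644% of all genes lower; 2 had an unadjusted p under 0.05 (Ybx2 at -0.69 ± 0.31 and Mos at -0.85 ± 0.32, log2, SE), and DESeq2 and limma-voom also called 0. The median change of the 9 at 6 months was -0.54 (log2). At 9 months all 9 were lower than at 3 months, against 13.6% of all genes, with a median change of -2.0. Directly between 6 and 9 months Dazl, Ybx2, Mos, Btg4, Zar1 and Patl2 fell, 6 of the 9, against 9.8% of all genes, and Patl2 and Dazl had the largest estimates (-2.03 and -1.79). Without library 5 at 6 months, the one with the highest Mos, Btg4 and Zar1 of its age, 2 of these 6 calls were left, Dazl and Patl2.

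From 9 to 12 months no gene of the 9 passed edgeR's test, 0 had an unadjusted p under 0.05, and DESeq2 and limma-voom called 0. Of all 15518 genes 0% were lower by edgeR, and 2152 had an unadjusted p under 0.05. The estimates of all 9 were above 0, from 0.03 ± 0.40 for Btg4 to 0.64 ± 0.33 for Dazl and 0.72 ± 0.55 for Patl2 (log2, SE). Of these estimates those of Cpeb1 and Mos were above 0 in every setting run; that of Ddx4 went to -0.31 and that of Btg4 to -0.27 without library 4 at 12 months. Fitted as a straight line over the 9 months, 8 of the 9 fell, against 14.8% of all genes, with the steepest slopes for Btg4 (-2.20 ± 0.37) and Mos (-2.10 ± 0.37). Lsm14b missed the threshold (-0.17 ± 0.07, edgeR adjusted p = 0.0507). It passed in DESeq2 (adjusted p = 0.0466), in limma-voom (0.0322) and in edgeR with a filter of CPM above 1 in at least 4 libraries (0.0495). In edgeR it also passed without library 2 at 6 months (0.0473) or library 4 at 12 months (0.0247). Cpeb1 (-0.36 ± 0.11, edgeR adjusted p = 0.0193) lost its call without library 3 at 3 months (0.0622).

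Several 9-month libraries stood apart, which touches every comparison of that age. Libraries 1 to 4 at 9 months held 16.2 to 362 CPM of Alb, the serum albumin gene of liver, against at most 5.12 CPM elsewhere, and libraries 1 and 2 at 9 months and library 2 at 12 months held 6.15 to 12.5 CPM of Cr2, a lymph node gene, against at most 0.837 CPM elsewhere. Without the 4 liver-bearing libraries 1 library of 9 months remained, assumed to vary like the other ages. The 6 calls at 12 against 3 months stayed at 6. The calls at 9 against 3 months went from 9 to 0 and those at 9 against 6 months from 6 to 0. The changes from 3 months were still negative for all 9, at -3.67 for Patl2, -2.05 for Mos, -1.78 for Btg4, -1.49 for Dazl, -0.57 for Cpeb1 and -0.07 for Lsm14b (log2). Along the trend over age, Cpeb1 and Patl2 lost their calls without these libraries, with slopes of -0.32 and -1.51. Library 2 at 9 months was the lowest of its age for Dazl, Ddx4, Ybx2, Mos, Btg4, Zar1 and Lsm14b. It also held the lowest sum of 12 oocyte genes at that age, 26.2 CPM against a 9-month median of 122 CPM, and the largest sum of the oviduct list, 6470 CPM; the part of these in its low values was not tested.

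Compared with other oocyte genes, most of the 9 did not pass a test for a different change, and their intervals were wide. The reference was 12 genes of growing oocytes outside the group, among them Gdf9 and Bmp15, growth factors of the oocyte, and Zp3, a protein of its coat. All 12 of them fell by 12 months, with a median log2 change of -1.75; Gdf9 averaged 63.3 ± 11.2 CPM at 3 months (n = 5, SD) and 18.04 ± 7.62 CPM at 12 months (n = 4, SD), Bmp15 44.8 ± 8.96 and 11.8 ± 2.40 CPM, and Zp3 41.1 ± 7.67 and 12.2 ± 4.51 CPM. In each library the mean log2 CPM of the reference was subtracted from every gene, and the remainder was tested with limma. By that test 2 of the 9 differed from the reference between 3 and 12 months, Lsm14b by 1.64 ± 0.45 (log2, SE; limma adjusted p = 0.000476) and Cpeb1 by 1.5 ± 0.46 (limma adjusted p = 0.00162), both in the direction of a smaller fall. Of all 15518 genes 95.4% differed from the reference, and 96.9% along the trend over age, where Lsm14b and Cpeb1 were again the 2 of the 9 that differed.

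The other 7 did not pass, with estimates between -0.28 for Btg4 and 0.40 for Ybx2. Their intervals were wide: Dazl lay between -0.88 and 1.21, Zar1 between -0.91 and 1.11 and Patl2 between -0.998 and 1.41 (95%, log2). limma pools its standard errors over genes, all of which carry the reference's own spread here, so these intervals are wide beside a single gene's values by library. With each gene's own variance in place of the pooled one, Cpeb1 and Lsm14b were again the 2 of the 9 that passed. Within the libraries Zar1 lay 1.16 ± 0.15 log2 units below the reference at 3 months (SD, n = 5) and 1.06 ± 0.19 below it at 12 months (SD, n = 4). Lsm14b lay 1.76 ± 0.22 above it at 3 months and 3.40 ± 0.55 above it at 12 months, without overlap.

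**Figure D3:**
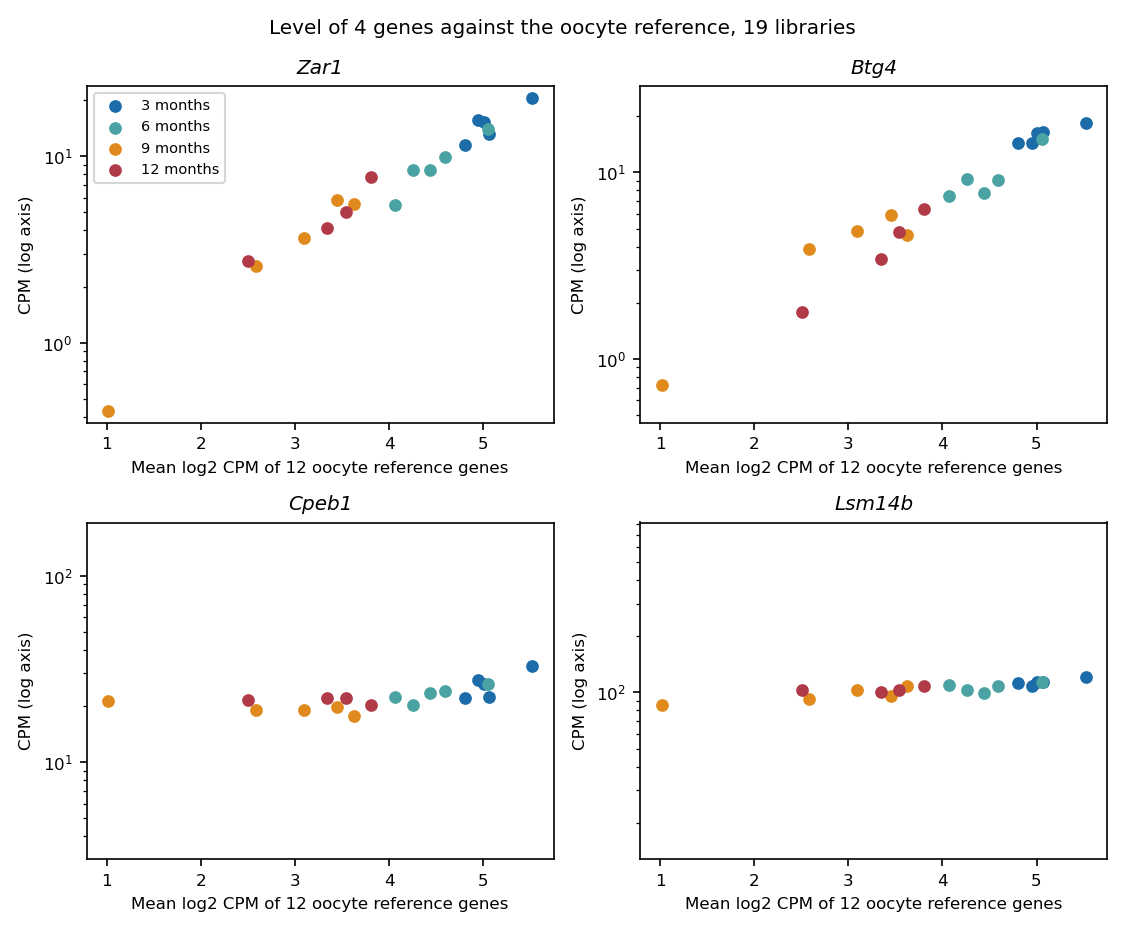
Level of Zar1, Btg4, Cpeb1 and Lsm14b in CPM (vertical log axes, each spanning the same ratio) against the mean log2 CPM of 12 oocyte reference genes (horizontal axis) in 19 libraries coloured by age. Zar1 and Btg4 follow the reference from 9-month library 2 at 1.01 up to 3-month library 3 at 5.52, while Cpeb1 and Lsm14b lie nearly level.

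Over the 19 libraries the correlation of log2 CPM with the reference was 0.983 for Zar1, 0.974 for Btg4, 0.955 for Dazl, 0.954 for Mos, 0.898 for Ddx4, 0.866 for Lsm14b, 0.864 for Ybx2, 0.639 for Cpeb1 and 0.602 for Patl2 (Pearson's r). These are descriptions: the points share their age, library and depth, and Patl2, with 0 to 36 counts a library, is noisy. Among the 9, Mos and Btg4 had the highest r (0.967) and Ddx4 and Patl2 the lowest (0.430). Lsm14b, though it moved over a narrow range, reached 0.884 with Dazl. Of 13612 genes compared, those most like the mean of the 9 were Bpgm and Trim61 (both 0.979), Obox2 (0.977), Bmp15, Zbed3 and Ccdc82 (each 0.976), and Tcl1 and Nlrp4b (both 0.975). Bmp15 and Tcl1 belong to the oocyte reference. Ccdc82, at a mean of 1020 CPM, and Zbed3, at 81.2 CPM, were the most abundant of these 8 genes, and they fell by 1.46 and 0.73 (log2) by 12 months.

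The paralogs of the 9 allowed a comparison within families. Of 13 paralogs tested 5 fell by 12 months and none rose, against 11.5% of all genes lower and 10.9% higher. The median log2 change of the paralogs was -0.04. Zar1l, the relative of Zar1 and also an oocyte gene, had the largest change: it averaged 3.29 ± 0.85 CPM at 3 months (n = 5, SD) and 0.819 ± 0.336 CPM at 12 months (n = 4, SD), and its change was -2.0 ± 0.53 (log2, SE; edgeR adjusted p = 0.0128). Ddx3x, Patl1 and Lsm14a, the widely transcribed relatives of Ddx4, Patl2 and Lsm14b, fell by 0.30, 0.29 and 0.19 (log2), and Tob1, a BTG/TOB protein like BTG4, fell by 0.57. Ybx1, the relative of Ybx2, was at -0.01 ± 0.17, and Cpeb2, Cpeb3 and Cpeb4 were at 0.03, -0.04 and -0.14. Btg1, Btg2, Btg3 and Tob2 were between 0.07 and 0.22. Boll was below the filter, Ybx3 (Csda in the table) was listed at 0 in all libraries, and Ddx3y is Y-linked.

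Set against their paralogs within the same libraries, Btg4, Patl2, Ybx2, Ddx4 and Cpeb1 had a lower median share at 12 months. Per kilobase Btg4 stood at 12.7% of Tob1 at 3 months and at 4.76% at 12 months (medians over libraries), and at 20.5% and 4.06% of Btg1. Patl2 stood at 6.11% of Patl1 at 3 months, with a range of 4.87% to 8.03%, and at 3.62% at 12 months, with a range of 0% to 4.83%. Ybx2 stood at 1.22% and 0.432% of Ybx1, Ddx4 at 0.743% and 0.363% of Ddx3x, and Cpeb1 at 128% and 93.2% of Cpeb2. The ages overlapped for Ddx4 (0.606% to 1.31%, then 0.112% to 0.722%) and for Cpeb1 (94.0% to 157%, then 87.6% to 129%). Against Cpeb3 the medians of Cpeb1 were 285% and 252%, and against Cpeb4 192% and 170%. Lsm14b, by contrast, stood at 106% of Lsm14a at 3 months and at 110% at 12 months, and Zar1 at 120% and 167% of Zar1l. The ages overlapped for Lsm14b (103% to 116%, then 101% to 128%) and for Zar1 (111% to 131%, then 99.6% to 207%). Zar1l held only 6 to 15.4 counts in the 12-month libraries. These ratios were not tested, and reads that fit both genes of a pair could be shared between them by the authors' counting.

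**Figure D4:**
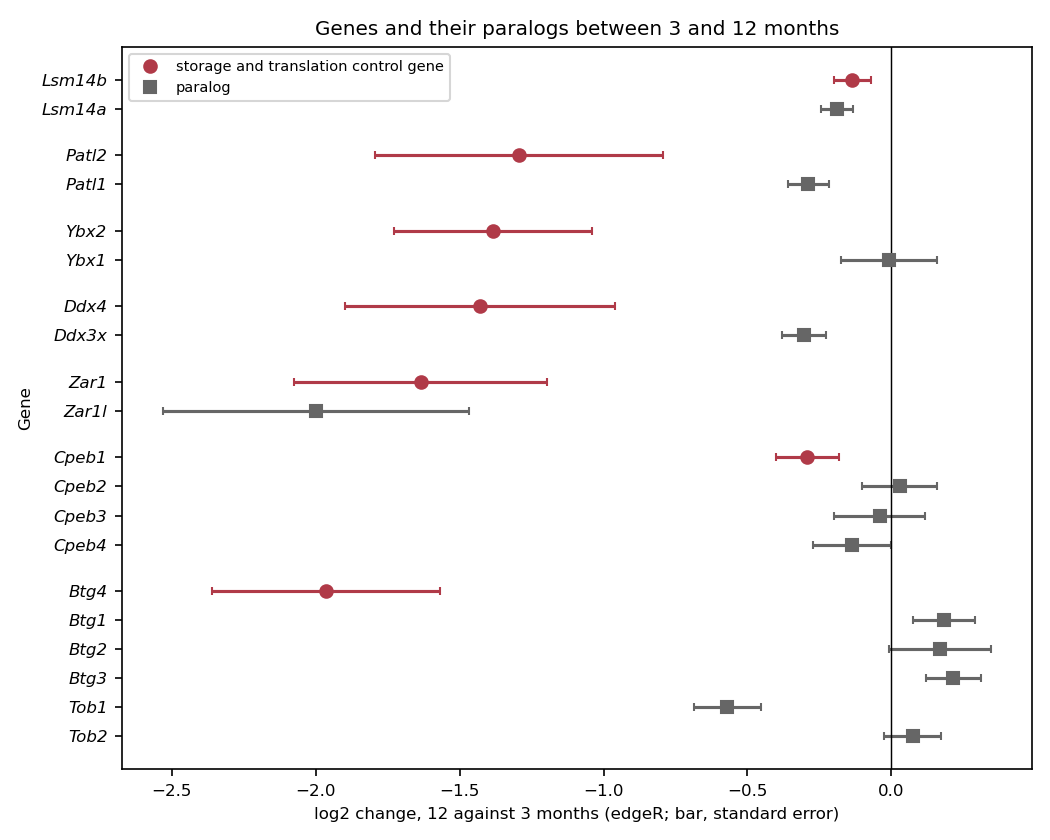
Log2 change between 3 and 12 months by edgeR (horizontal axis, bars give the standard error) for 7 of the genes (circles) and their tested paralogs (squares). Zar1l lies at -2.0 beside Zar1 at -1.63, whereas Ybx1 lies at -0.01 beside Ybx2 at -1.38.

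Partner genes of the same steps were followed in 7 lists, whose counts are to be read against the 11.5% of all genes that were lower at 12 months and the 10.9% that were higher. Of the storage and masking partners 8 of 19 tested fell by 12 months and 0 rose, with a median log2 change of -0.19. Larp4 (-0.46), Fmr1 (-0.34), Eif4enif1 (-0.30) and Caprin1 (-0.27) had the smallest p, all of them widely transcribed genes. Zar1l and Kpna7, an importin of the oocyte, fell furthest (-2.0 and -1.32). Ddx6, the helicase that joins LSM14 and PATL proteins in repressed particles, was at 0.00 ± 0.07 and 534 CPM at both ages.

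The list of genes around CPEB and polyadenylation, not all of them oocyte genes, had 10 of 28 lower and 1 higher, with a median of -0.19. Cstf2 (-0.40), Tacc3 (-0.90), Cpsf6 (-0.30) and Wdr33 (-0.24) led by p, and Pabpn1l, an oocyte poly(A)-binding protein, fell by 1.79. Pabpc1l of the same list was at -1.025 (log2) and did not pass (edgeR adjusted p = 0.0665). Among cap-binding factors 2 of 18 were lower and 1 was higher, shares near those of all genes that give no result about the list. Eif4e1b, the cap-binding protein of oocytes, averaged 17.3 ± 5.09 CPM at 3 months (n = 5, SD) and 5.82 ± 2.51 CPM at 12 months (n = 4, SD), and its change was -1.57 (log2). Paip1 fell by 0.25 and Eif4g3 rose by 0.26.

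Of the deadenylation factors, a list that also holds the BTG/TOB relatives of Btg4, 2 of 20 fell by 12 months and 0 rose. The 2 were the scaffold Cnot1 (-0.28) and Tob1, and the median was -0.01. That share, too, is near the 11.5% of all genes. Cnot7 was listed at 0 in all libraries. Of the decapping and decay genes 9 of 26 were lower and 0 higher, with a median of -0.19. Upf2 (-0.28), Zcchc11 (-0.39), Dcp2 (-0.32) and Ythdc2 (-0.45) had the smallest p.

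Germ granule and germ cell RNA-binding genes, the company of DDX4 and DAZL, had 9 of 25 lower and 0 higher at 12 months, with a median of -0.76, the lowest of the 7 lists. At 9 months 16 of the 25 were lower than at 3 months, against 13.6% of all genes. Tdrd1 fell from 10.7 ± 2.10 CPM at 3 months (n = 5, SD) to 2.99 ± 0.53 CPM at 12 months (n = 4, SD), and Tex19.1, Henmt1 and Pum2 fell by 2.09, 1.58 and 0.24 (log2). The spermatid genes Prm1, Prm2, Tnp1 and Tnp2 did not pass the filter on low counts.

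Of the MOS, MAPK and maturation kinases 12 of 26 were lower and 1 was higher, with a median of -0.44. Wee2, the oocyte form of the WEE kinase, fell by 1.82 (log2). Ccnb1, the cyclin of mitosis and meiosis, fell from 56.97 ± 11.02 CPM at 3 months (n = 5, SD) to 28.1 ± 8.13 CPM at 12 months (n = 4, SD), while Bub1b and Cks2 fell by 0.91 and 0.81. These last 3 also act in dividing somatic cells. Map2k1, the kinase that MOS activates, fell by 0.21, and Map2k2 rose by 0.31.

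**Figure D5:**
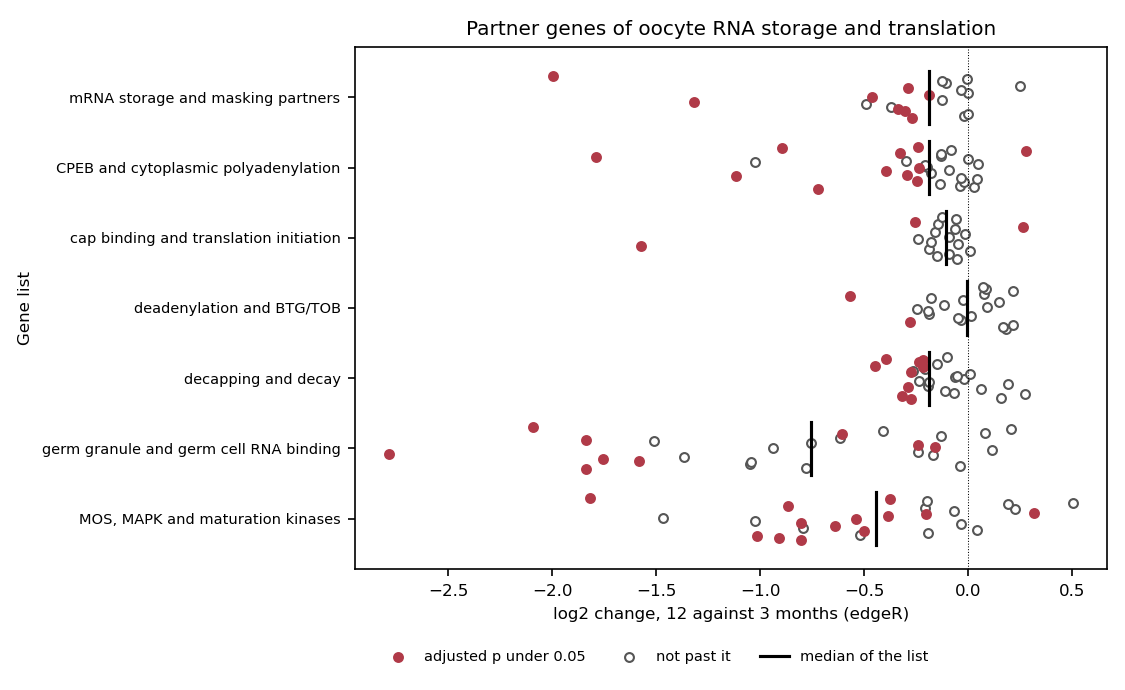
Log2 change between 3 and 12 months by edgeR (horizontal axis) for each tested gene of 7 partner lists; filled points passed an adjusted p of 0.05 and vertical lines give each list's median. The medians run from -0.76 in the germ granule list to -0.01 in the deadenylation list.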

How the data were processed

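RNA of frozen ovaries was purified on columns and made into stranded libraries, per the labels' protocols. The authors deposited estimated counts per gene, which are mostly fractional (17.5% to 21.6% of nonzero values in a library are whole within 1e-06), and, per the file headers, log2 values set relative to the 3-month median. Reads were placed on build mm10, per the submitters' processing notes. The aligner and how reads were counted: not given in the sources used here. Each table has 1 further column that matches no sample and was not used here. No exon of the 9 genes overlaps with an exon of another gene in GENCODE.

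Counts were rounded, filtered (edgeR filterByExpr, minimum count 10, minimum total 15) and tested with edgeR 4.0.16 (robust quasi-likelihood, TMM, a mean per age over all 19 libraries). The line over age is given as the change over 9 months. The comparison with the 12 reference genes used limma 3.58.1 on log2 CPM (prior count 2). Adjusted p-values are Benjamini-Hochberg values over all 15518 genes, with a threshold of 0.05. Alternatives were other scalings, filters and thresholds, DESeq2 1.42.0, limma-voom, the authors' log2 values, only the ages compared, corpus luteum and oviduct covariates, other references and prior counts, and libraries left out. Leaving out the libraries with liver transcripts, and each gene's own variance in the comparison with the reference, were chosen after seeing the data. The steps were tested on simulated counts.

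The 9 genes, the lists and the reference were chosen with earlier results of these data known. Named by rule were the 9 genes, from each list up to 4 genes with the smallest p at 12 against 3 months among those past the threshold, all tested paralogs, the 8 genes of most similar pattern with a mean of at least 1 CPM (predicted genes left out), and Gdf9, Bmp15 and Zp3. Kpna7, Pabpn1l, Pabpc1l, Ddx6, Map2k1, Map2k2, Cnot7, Alb, Cr2 and the spermatid genes were named after their values were seen. Of 263 list entries 2 had no gene in the table. The result of 1 list gene is not reported here.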

Additional observations from a re-analysis of the deposited data

Results flagged for a closer look

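In library 2 at 9 months Ddx4 was at 0.432 CPM, while the other 4 libraries of that age held 1.52 to 1.81 CPM. Mos was at 0.288 CPM in the same library, against 1.45 to 1.81 CPM in the others. In library 5 at 6 months Mos was at 5.23 CPM against 2.47 to 3.05 CPM in the others of that age, and Btg4 was at 15.1 CPM against 7.46 to 9.21 CPM. These 4 lay farther from the rest of their age than a limit that chance passes in about 1 of 20 groups, and 36 groups were looked at. Each of these 2 libraries is also an end of its age for the 12 oocyte reference genes, with the lowest mean log2 CPM at 9 months (1.01) and the highest at 6 months (5.05).

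Ddx3y, a Y-linked relative of Ddx4 and outside every comparison, had estimated counts of 17 in library 3 and 12 in library 2 at 9 months, and 2 in libraries 1 and 4. It was at 0 in all 3-month and 6-month libraries. Libraries 1 to 4 at 9 months are also those with liver transcripts, and the origin of these counts was not tested. The labels give all mice as female.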

How the results depend on the processing

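No paired analysis was possible because the labels give no replicate number shared between ages. No called value changed sign. Beside the 6 calls at 12 against 3 months, the oviduct covariate left 3, and leaving out single libraries gave 4 (without library 3 at 12 months) to 7. Without the libraries with liver transcripts 0 of 9 calls remained at 9 against 3 months and 0 of 6 at 9 against 6 months; 1 library of 9 months is left there. At 9 against 6 months an adjusted p under 0.01 left 2, a fit of only the ages compared left 3, and leaving out library 5 at 6 months left 2 (range 2 to 6 over the 19 libraries left out). Ybx2 lost its call at 9 against 6 months in 23 of 31 settings. The counts at 6 against 3 months and 12 against 9 months stayed at 0 in every setting run, and the 2 calls against the oocyte reference were kept in all 39. Library labels run in order of age, so handling order cannot be told apart from age. Low counts limit Patl2, Ddx4 and Mos, which reached 0, 5.87 and 4 counts in single older libraries.

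Of 2367 values of single genes under another setting, 43 changed sign, 0 of them called in either fit (log2 changes throughout). At 12 against 9 months, leaving out the libraries with liver transcripts gave Dazl -0.0841, Ddx4 -0.103, Ybx2 -0.168, Btg4 -0.192, Zar1 -0.189 and Lsm14b -0.0729, and Lsm14b 0.0291 at 9 against 6 months. limma-voom gave Ddx4 -0.304, Btg4 -0.141 and Patl2 -0.28 at 12 against 9 months, the authors' log2 values gave Ddx4 -0.0108, and leaving out the lymph node libraries gave Btg4 -0.0722. Leaving out single libraries gave ranges there of -0.308 to 0.434 for Ddx4, -0.267 to 0.272 for Btg4 and -0.00522 to 0.421 for Ybx2, and of -0.0692 to 0.115 for Patl2 at 6 against 3 months. Against the oocyte reference at 12 against 3 months, a prior count of 0.5 gave Patl2 -0.304, a prior count of 5 gave Mos 0.0907, a reference without Zp1, Ooep or Tcl1 gave Mos 0.00257, 0.00404 and 0.0136, and a reference of transcription factors gave Zar1 -0.0299; single libraries left out gave -0.0848 to 0.13 for Mos and -0.314 to 1.05 for Patl2. Along the trend against that reference, transcription factors gave Dazl -0.171, Mos -0.154, Zar1 -0.173 and Patl2 -0.0985, a prior count of 0.5 gave Patl2 -0.338, leaving out the lymph node libraries gave Patl2 -0.0821, and leaving out the liver-bearing ones gave Mos -0.0091 and Patl2 -0.0582. Single libraries left out gave -0.00375 to 0.279 for Dazl and -0.157 to 0.866 for Patl2.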
